A study of Caenorhabditis elegans with 3 samples.

Results

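The genes described here are 10 genes of protein folding in the endoplasmic reticulum (ER) of the nematode Caenorhabditis elegans: hsp-3, hsp-4, dnj-7, enpl-1, pdi-1, pdi-2, pdi-3, crt-1, cnx-1 and xbp-1. They were chosen by name, as the genes of this set with a probe of their own on the array. The choice was made with earlier results of these data known, so the shares of all features given below only describe the set. All 10 genes were measured, out of 14686 named genes. They had 12 probes in all, 2 each for dnj-7 and xbp-1 and 1 for each of the other 8. The series holds 3 two-colour DNA arrays. Each carried total RNA from glp-4 larvae of stage L3 (preps 1, 3 and 4) in one channel and a mixed wild-type RNA, the reference, in the other. The labels give no allele, temperature or culture for the glp-4 animals and do not say what was mixed in the reference. Because genotype and composition of the 2 RNAs differ together, a difference cannot be assigned to genotype or stage alone. Temperature-sensitive glp-4 mutants are known as animals with few germ cells.

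Secreted and membrane proteins fold in the ER. Hsp70 chaperones of the BiP type bind unfolded chains there, J-domain proteins and the Hsp90 chaperone endoplasmin work with them, protein disulfide isomerases form and rearrange disulfide bonds, and the lectins calreticulin and calnexin hold glycoproteins until they are folded. When unfolded proteins build up, the sensor kinase IRE-1 starts the splicing of xbp-1 mRNA, and the XBP-1 protein raises the transcription of folding genes, a response called the unfolded protein response (UPR). In this worm the intestine and the cuticle-forming hypodermis secrete large amounts of protein.

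The deposited values are channel ratios on the log2 scale, and each array was centred on its median probe. A value of 0 therefore stands for the median probe of the array, and a value of 1 for a 2-fold ratio. The labels do not state the direction of the ratio. Here glp-4 L3 was taken as the numerator, which is likely, since the labels put glp-4 in channel 2 and germ-line genes lay below 0. If it ran the other way, every direction below would turn and every size would stand. The SD of the deposited log2 values over all probes came to 0.71, 0.963 and 1.139 with preps 1, 3 and 4, so the arrays differed in their spread. The arrays correlated over all probes with r between 0.599 and 0.835, the highest between preps 3 and 4. The array titles of preps 3 and 4 share a letter code and what reads as a date, and that of prep 1 differs in both. What the code and the date stand for is not stated. Each mean is given ± SD of the 3 arrays (n = 3) with the adjusted p of limma, fitted over all 19580 features measured on all arrays. Nothing in the labels says that the preps came from separate cultures, so these p-values measure the spread between preps, which may be technical. Limma combines the spread of each gene with that of all features. The p-values and intervals therefore do not follow from the printed SD of a gene alone.

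All 10 ER folding genes lay above the median probe on all 3 arrays, and 8 of the 10 were higher in glp-4 L3 at an adjusted p under 0.05, the threshold used throughout. Of all features, 8.26% were higher by the same test, and 29.1% lay above 0 on all 3 arrays. Of the 10 genes, 7 were both higher and at least 2-fold above the reference, against 6.05% of all features, and none was lower (none by the unadjusted p of limma either), against 8.37% of all features. The median of the 10 means was a log2 ratio of 1.27. The largest mean, of hsp-3, was 3.9-fold, and the smallest, of cnx-1, was 1.29-fold. In bulk RNA of whole animals, more cells of a type and more RNA per cell cannot be told apart.

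**Figure D1:**
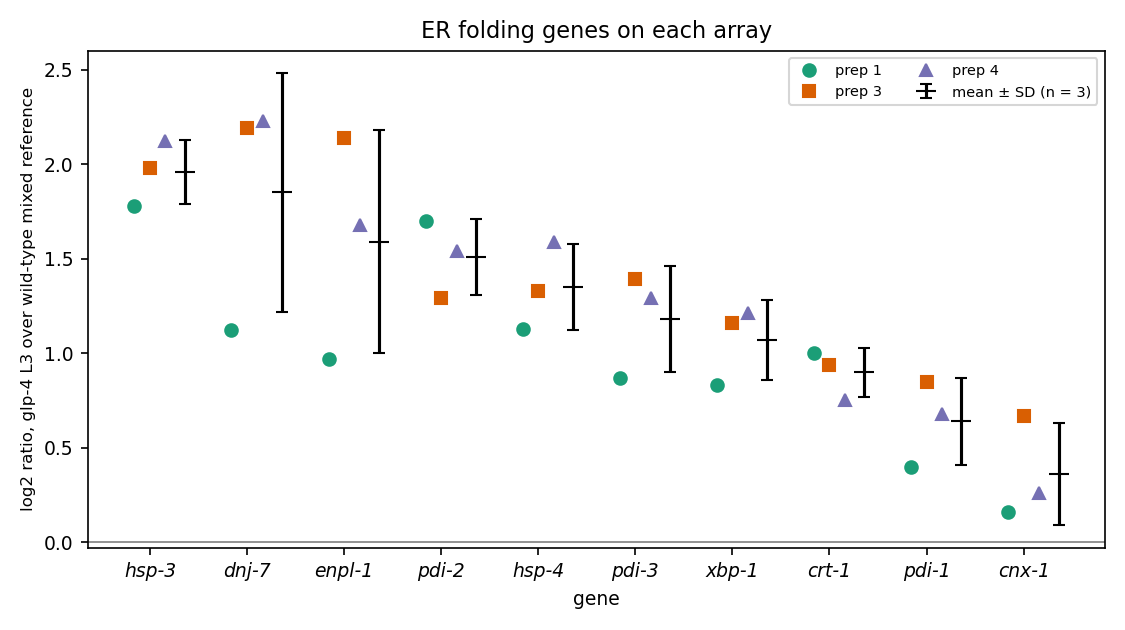
Log2 ratio (glp-4 L3 over wild-type mixed reference, centred on the array median) of each of the 10 ER folding genes with preps 1, 3 and 4, with the mean ± SD of the 3 arrays, in order of the mean. All points lie above 0, from 0.16 for cnx-1 with prep 1 to 2.23 for dnj-7 with prep 4.

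The BiP genes hsp-3 and hsp-4 encode Hsp70 chaperones of the ER lumen, and hsp-4 is widely used as a reporter of the UPR. For hsp-3 (C15H9.6) the log2 ratios were 1.78, 1.98 and 2.12 with preps 1, 3 and 4. These are close to each other and lay at percentiles of 96.6 to 98.3 of their arrays. The mean was 1.96 ± 0.17, a 3.9-fold ratio with a 95% interval of 2.9 to 5.23 (limma adjusted p = 0.00393). Those of hsp-4 (F43E2.8) were 1.13, 1.33 and 1.59, also lowest with prep 1. The mean was 1.35 ± 0.23, a 2.55-fold ratio with a 95% interval of 1.87 to 3.48 (limma adjusted p = 0.00953).

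Set against each other on the same array, a comparison that does not depend on the centring, hsp-4 lay below hsp-3 every time. The difference, hsp-4 minus hsp-3, came to -0.66, -0.66 and -0.53 with preps 1, 3 and 4, with a mean of -0.61 ± 0.07 on the log2 scale. The ratio of hsp-4 was thus 1.53-fold smaller, by more than the spread of the difference between arrays. An exact two-sided sign-flip permutation test gave p = 0.25, the smallest that 3 arrays allow. The difference is between ratios to the reference and says nothing of which gene had more RNA. The genes are close relatives, and probe sequences were not used here, so whether their probes share signal was not tested.

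The J-domain gene dnj-7 (C55B6.2), related to the mammalian BiP co-chaperone P58IPK, had log2 ratios of 1.12, 2.19 and 2.23 with preps 1, 3 and 4. The value with prep 1 stood clearly below the other 2, and the mean was 1.85 ± 0.63 (3.6-fold, limma adjusted p = 0.0124). Both of its probes showed this, at 1.20 and 1.04 with prep 1, 2.45 and 1.94 with prep 3, and 2.13 and 2.33 with prep 4. The gene of endoplasmin, enpl-1 (T05E11.3), had log2 ratios of 0.97, 2.14 and 1.68. It too was lowest with prep 1, and its mean was 1.59 ± 0.59 (3.02-fold, limma adjusted p = 0.0166). These 2 genes had the largest SDs of the 10. In percentiles of the same array the gap was narrower: dnj-7 stood at 95.4 with prep 1, 98.2 with prep 3 and 97.0 with prep 4, and enpl-1 at 94.2, 98.1 and 94.3 in the same order of preps.

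Among the protein disulfide isomerase genes of the set, pdi-1 was lowest on every array. The largest mean was that of pdi-2 (C07A12.4), whose product is also the beta subunit of the prolyl 4-hydroxylase that modifies collagen. Its log2 ratios of 1.70 with prep 1, 1.29 with prep 3 and 1.54 with prep 4 were highest with prep 1, and the mean was 1.51 ± 0.20 (2.85-fold, limma adjusted p = 0.00684). For pdi-3 (H06O01.1) the log2 ratios were 0.87 with prep 1, 1.39 with prep 3 and 1.29 with prep 4, a mean of 1.18 ± 0.28 (2.27-fold, limma adjusted p = 0.0147). The third, pdi-1 (C14B1.1), had log2 ratios of 0.40, 0.85 and 0.68 with preps 1, 3 and 4. Its mean of 0.64 ± 0.23 (1.56-fold, 95% interval 1.15 to 2.13) did not pass after adjustment (limma adjusted p = 0.0658). It passed with quantile normalization, with array weights and with prep 1 left out. On the same array, pdi-3 exceeded pdi-1 by 0.47, 0.54 and 0.61 with preps 1, 3 and 4, a mean difference of 0.54 ± 0.07. The ratio of pdi-2 exceeded that of pdi-1 by 1.30, 0.44 and 0.86, which is positive on every array but varied more (0.87 ± 0.43). Between pdi-2 and pdi-3 the sign differed between arrays, at 0.83, -0.10 and 0.26, and no order could be given.

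The glycoprotein-binding chaperones lay at the low end. Calreticulin, crt-1 (Y38A10A.5), a calcium-binding lectin of the ER lumen, had log2 ratios of 1.00, 0.94 and 0.75 with preps 1, 3 and 4. This was the smallest spread of the 10 genes, and the mean was 0.90 ± 0.13 (1.87-fold, limma adjusted p = 0.0227). Its call was lost when the arrays were scaled to the same spread, although its mean was then 1.04. Its membrane-anchored relative calnexin, cnx-1 (ZK632.6), had log2 ratios of 0.16, 0.67 and 0.26 with preps 1, 3 and 4. The mean of 0.36 ± 0.27 (1.29-fold, 95% interval 0.934 to 1.77) did not pass the test (limma adjusted p = 0.214), though it passed with array weights. On the same array crt-1 exceeded cnx-1 by 0.84, 0.28 and 0.49 with preps 1, 3 and 4, a mean of 0.54 ± 0.28.

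The transcription factor gene xbp-1 (R74.3) had log2 ratios of 0.83 with prep 1, 1.16 with prep 3 and 1.21 with prep 4, with a mean of 1.07 ± 0.21 (2.1-fold, limma adjusted p = 0.0164). Its 2 probes gave means of 1.01 and 1.12, and the values were 0.73 and 0.93 with prep 1, 1.13 and 1.19 with prep 3, and 1.18 and 1.24 with prep 4. Where the probes lie on the transcript was not used here, so spliced and unspliced xbp-1 mRNA cannot be told apart.

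In order of the mean, the 10 genes ran hsp-3, dnj-7, enpl-1, pdi-2, hsp-4, pdi-3, xbp-1, crt-1, pdi-1 and cnx-1. Most neighbours in this order did not differ beyond the spread between arrays. Of the 9 neighbouring pairs, 2 had a mean difference larger than its SD, namely pdi-3 over xbp-1 (0.12 ± 0.10) and pdi-1 over cnx-1 (0.28 ± 0.12). Ranks within an array do not depend on the spread of that array. By rank, 6 of the 10 genes (hsp-3, dnj-7, enpl-1, pdi-2, hsp-4 and pdi-3) lay in the top 10 percent on all 3 arrays, where 4.12% of all features did. Their median percentile was 94.4, 93.7 and 91.9 with preps 1, 3 and 4. The lowest percentile was 62.4, for cnx-1 with prep 4.

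**Figure D2:**
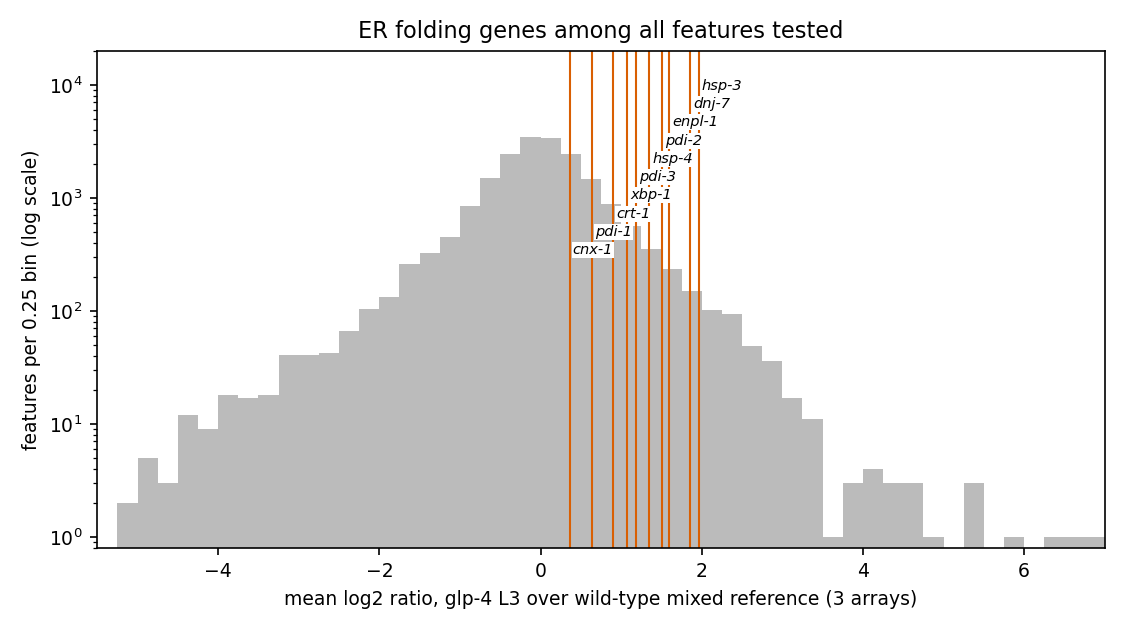
Distribution of the mean log2 ratio (glp-4 L3 over wild-type mixed reference) of all 19580 features in bins of 0.25, with the count on a log scale. Vertical lines mark the 10 ER folding genes, which lie on the right of the distribution between 0.36 (cnx-1) and 1.96 (hsp-3).

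In 8 of the 10 genes the log2 ratio was lowest with prep 1, and in the other 2, pdi-2 and crt-1, it was highest there. It was lowest with prep 1, the array with the narrowest spread, in 41.6% of all features and in 64.1% of those above 0 on all 3 arrays. By percentile within the array, 2 of the 10 genes (dnj-7 and enpl-1) were lowest with prep 1, and 5 (hsp-3, pdi-2, hsp-4, xbp-1 and crt-1) were highest there. The shares of all features by percentile were not worked out, so nothing is read from these 2 counts. The median log2 ratio of the 10 genes was 0.98, 1.31 and 1.41 with preps 1, 3 and 4. The median SD over the 3 arrays was 0.23 for the 10 genes and 0.31 for all features. The calls depended on which preps were used. With prep 1 left out, 9 of the 10 were higher, pdi-1 being added. With prep 3 left out, 1 remained (hsp-3), and with prep 4 left out, 3 remained (hsp-3, hsp-4 and pdi-2). The corresponding counts over all features were 3211, 174 and 631 higher, against 1617 with all 3 preps. Each of these fits tested the features measured on its own 2 arrays, so no share of the 19580 is given.

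Other genes that fold proteins in the ER were described by lists named by function. Of 17 measured genes among other ER folding factors, 8 (47.1%) were higher and none was lower, against 8.26% and 8.37% of all features. Their median log2 ratio was 0.83, against 0 for all features. By the unadjusted p at the same threshold, 10 were higher and 1 lower, against 3354 and 3560 of the 19580 features. The highest was the disulfide isomerase gene pdi-6, with log2 ratios of 1.88, 2.16 and 2.67 with preps 1, 3 and 4 (mean 2.24 ± 0.40, limma adjusted p = 0.00476). This mean was above that of hsp-3. Without prep 3 the higher count of the list was 1. Next came T14G8.3 (1.87 ± 0.55), fkb-3 (1.74 ± 0.34), which encodes a prolyl isomerase of the FKBP type, and uggt-1 (1.57 ± 0.25), which encodes a glucosyltransferase that re-marks unfolded glycoproteins for the lectins. The related uggt-2 was at 0.09 ± 0.15 and did not pass. The single gene lower by the unadjusted p was that of Y49E10.4, at -2.18, -0.42 and -0.99 with preps 1, 3 and 4 (limma adjusted p = 0.0776).

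The 14 measured genes of ER entry and glycosylation had a median log2 ratio of 0.64 (10 higher and 0 lower by the unadjusted p). Against 8.26% and 8.37% of all features, 5 (35.7%) were higher and none lower by the adjusted p. They were trap-2 (1.65 ± 0.17) and trap-4 (1.08 ± 0.01), of the complex that accompanies the translocation channel, sec-61.A (1.11 ± 0.13) and sec-61.G (0.90 ± 0.07), of the channel itself, and stt-3 (0.82 ± 0.10), the catalytic subunit of oligosaccharyltransferase. All 14 means were above 0, the lowest being 0.09. Without prep 3 none passed, and without prep 4 the higher count was 2. Of 13 measured genes of ER-associated degradation, which removes misfolded proteins, 1 was higher and none lower, and the median was 0.07 (2 higher and 1 lower by the unadjusted p). The one was cdc-48.2 (0.84 ± 0.12), a gene of the ATPase that extracts proteins from the ER membrane, while its close relative cdc-48.1 was at 0.00 ± 0.05. At 7.69% higher, this list stood near the 8.26% of all features. Its higher count was 2 without prep 1 and 0 without prep 3 or prep 4.

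Among the sensors and regulators of the UPR, 1 of 5 was higher and none was lower, with a median log2 ratio of 0.14 (1 and 0 by the unadjusted p). This is 20%, a single gene, against 8.26% of all features higher and 8.37% lower. The transcription factor gene atf-4, whose translation rises when the sensor kinase PEK-1 is active, had log2 ratios of 1.00, 1.22 and 1.00 with preps 1, 3 and 4 (mean 1.07 ± 0.13, limma adjusted p = 0.0138). It did not pass without prep 3 or without prep 4. The sensor genes were near 0 and did not pass: ire-1 was at 0.01 ± 0.16, pek-1 at 0.04 ± 0.45 and atf-6 at 0.14 ± 0.07. The gene rtcb-1, whose ligase joins the exons of xbp-1, was at 0.14 ± 0.33. On the same array xbp-1 exceeded ire-1 by 1.00, 1.09 and 1.08 with preps 1, 3 and 4.

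The 6 measured collagen-modifying enzyme genes had a median log2 ratio of 0.50 (3 higher and 0 lower by the unadjusted p). Against 8.26% and 8.37% of all features, 1 (16.7%) was higher and none lower by the adjusted p. It was dpy-18, the alpha subunit that pairs with PDI-2 in prolyl 4-hydroxylase. Its log2 ratios were 1.90 with prep 1, 1.02 with prep 3 and 1.05 with prep 4, a mean of 1.32 ± 0.50 (limma adjusted p = 0.0215). It did not pass without prep 3, without prep 4 or with arrays scaled to the same spread, and without prep 1 the higher count of the list was 2. Like pdi-2 it was highest with prep 1, and pdi-2 minus dpy-18 had no fixed sign, at -0.20, 0.28 and 0.49. Another alpha subunit gene, phy-2, was at 0.13 ± 0.40 and did not pass.

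**Figure D3:**
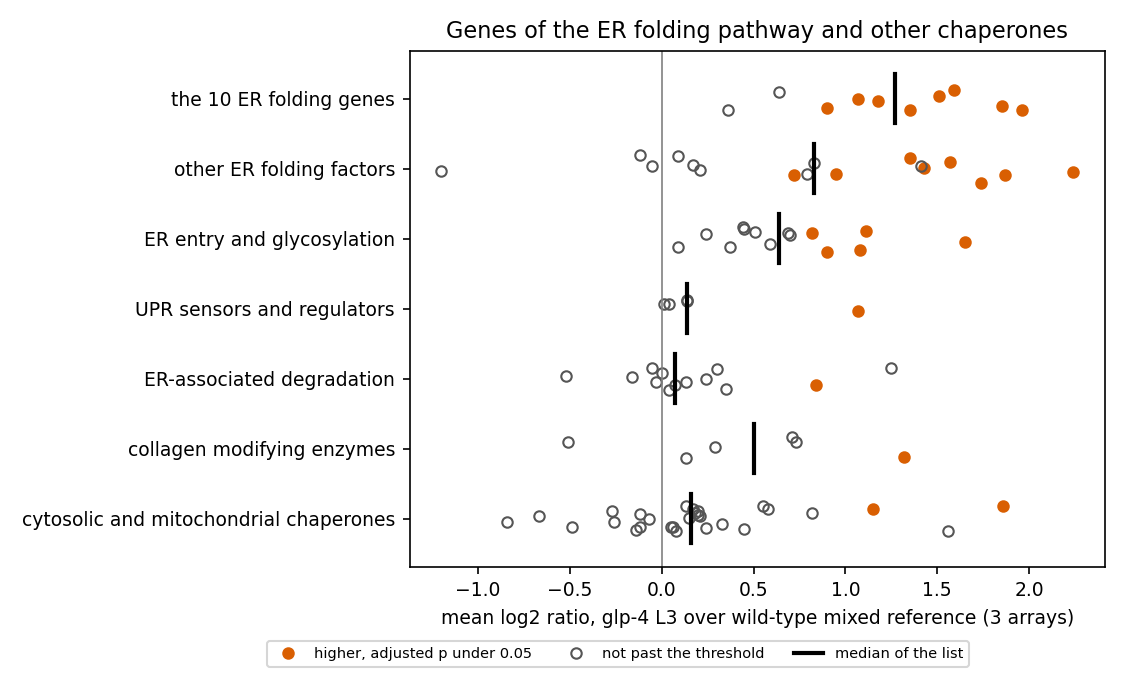
Mean log2 ratio (glp-4 L3 over wild-type mixed reference, 3 arrays) of each measured gene in the 10 ER folding genes and the 6 lists; filled points passed limma at an adjusted p under 0.05, open points did not, and black bars mark list medians. The medians run from 1.27 for the 10 ER folding genes to 0.07 for ER-associated degradation.

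Chaperones of the cytosol and mitochondria were measured as a set of 28 genes. Of these, 2 were higher and none lower, and the median was 0.16 (5 higher and 3 lower by the unadjusted p). The 2 were F44E5.5 (1.86 ± 0.79) and the cytosolic J-domain gene dnj-13 (1.15 ± 0.63). At 7.14% higher, this list also stood near the 8.26% of all features. Its median log2 ratio was -0.35, 0.43 and 0.42 with preps 1, 3 and 4, and the number of its 28 genes above 0 was 5, 23 and 21 in the same order of preps. The median of the 10 ER folding genes exceeded it by 1.34, 0.88 and 1.00 on the same arrays. Without prep 1 the higher count was 8, and without prep 3 or prep 4 it was 0.

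Within the Hsp70 family, both BiP genes lay above hsp-1, hsp-6 and hsp-110 on every array. The main cytosolic Hsp70 gene hsp-1 had log2 ratios of -0.41, 0.14 and 0.42 with preps 1, 3 and 4, a mean of 0.05 ± 0.42. The mitochondrial Hsp70 gene hsp-6 was at -0.48, 0.46 and 0.62, a mean of 0.20 ± 0.59. The cytosolic relative hsp-110 was at -0.42, 0.51 and 0.63, a mean of 0.24 ± 0.57. None of these 3 genes passed the test. The 2 probes of the heat-inducible hsp-70 disagreed: one was at 0.11, 0.01 and 0.18 with preps 1, 3 and 4, the other at 0.53, 1.42 and 1.21, which is above hsp-4 with prep 3. Their average, 0.58 ± 0.22, did not pass. F44E5.5, whose family the files used here do not give, was at 0.95, 2.34 and 2.30 and exceeded both BiP genes with preps 3 and 4. On the same array hsp-3 exceeded hsp-1 by 2.20, 1.84 and 1.70, and hsp-6 by 2.26, 1.53 and 1.5. For hsp-4 the excess was 1.54, 1.19 and 1.17 over hsp-1, and 1.61, 0.87 and 0.98 over hsp-6. The ER-associated relative stc-1 varied more, at 0.16, 1.34 and 0.98 (mean 0.83 ± 0.61), and did not pass (limma adjusted p = 0.0924). Of the other ER folding factors, T14G8.3 was at 1.24, 2.12 and 2.25 with preps 1, 3 and 4, above hsp-4 on every array. T24H7.2 was at 0.04, 0.37 and 0.11 and did not pass (limma adjusted p = 0.488). The family of these 2 genes was not examined here.

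**Figure D4:**
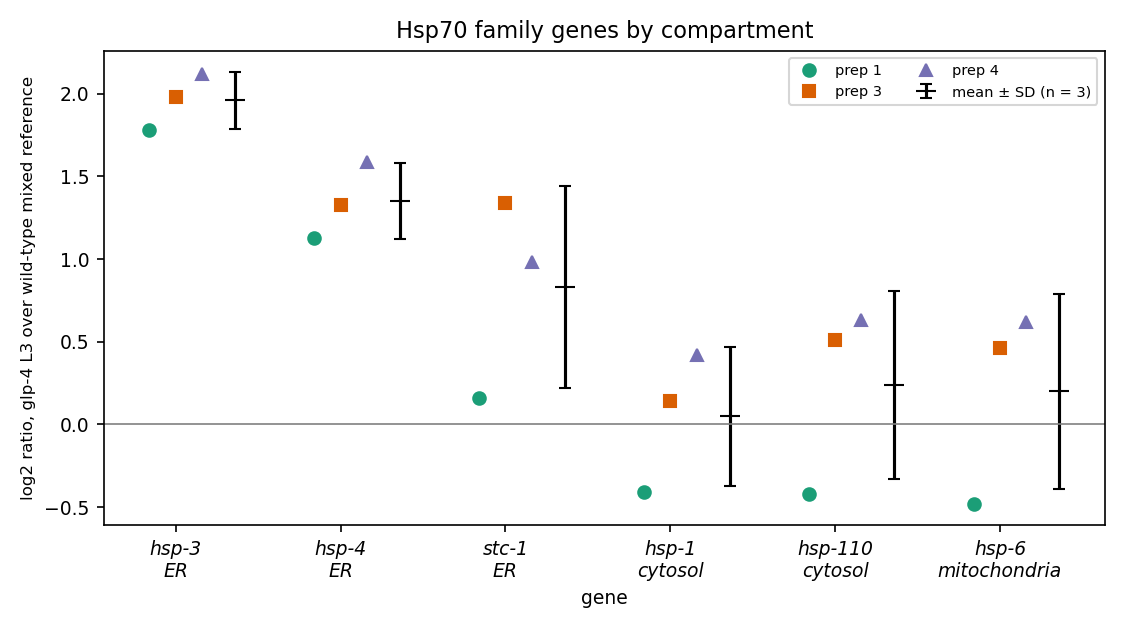
Log2 ratio (glp-4 L3 over wild-type mixed reference) of 6 Hsp70 family genes, grouped by the compartment of their product, with preps 1, 3 and 4 and the mean ± SD of the 3 arrays. The BiP genes hsp-3 and hsp-4 lie above 1 on every array, while hsp-1, hsp-110 and hsp-6 lie below 0 with prep 1 and between 0.14 and 0.63 with preps 3 and 4. Among the genes not shown are hsp-70, whose probes disagreed, and F44E5.5, which exceeded both BiP genes with preps 3 and 4. T14G8.3 and T24H7.2, of the list of other ER folding factors, are not shown either.

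Markers of several tissues also differed between the 2 RNAs. The shares of all features were 8.26% higher and 8.37% lower. All 12 germ-line markers were lower in glp-4 L3, with a median log2 ratio of -2.92 and a range of means from -5.18 to -1.26, and these markers were part of the basis for the direction of the ratio. Of 11 intestine markers 8 were higher and none lower (median 1.58, means from -0.39 to 2.73). Of 7 body wall muscle markers 6 were higher and none lower (median 1.49, means from 0.72 to 2.29), and of 7 hypodermis markers 3 were higher and none lower (median 1.35, means from -1.34 to 2.62). Of 8 neuron markers 1 was lower and none higher (median -0.33, means from -1.26 to 0.12). Without prep 3 the counts were 9 lower germ-line markers and 5, 2 and 1 higher markers of intestine, muscle and hypodermis, with no neuron marker lower; without prep 4 they were 12 lower, then 7, 3 and 2 higher, again with no neuron marker lower. Without prep 1, 1 hypodermis marker was lower. The median of the 10 ER folding genes lay 0.99, 0.21 and 0.36 below that of the intestine markers with preps 1, 3 and 4. It lay 0.19, 0.34 and 0.28 below that of the muscle markers, 1.37, 1.40 and 1.84 above that of the neuron markers, and 4.05, 4.04 and 4.62 above that of the germ-line markers. Against the hypodermis markers the sign changed: it lay 0.48 below them with prep 1, and 0.45 and 1.07 above them with preps 3 and 4. The hypodermis median was 1.46 with prep 1, against 0.86 and 0.34 with preps 3 and 4, and the cuticle collagen genes col-19 (1.83, -2.78 and -3.06) and bli-1 (3.66, 0.46 and 0.11) differed most between preps. The part of tissue makeup in the ratios of the folding genes was not tested. The gene glp-4 has no value here, because its 1 probe is shared with another gene.

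**Figure D5:**
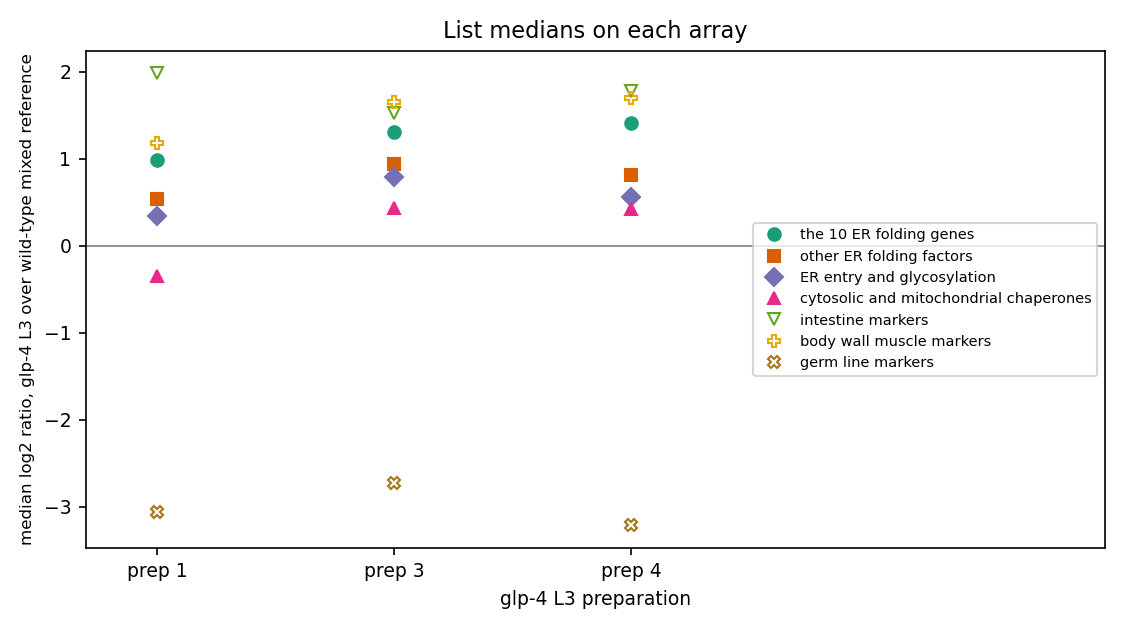
Median log2 ratio (glp-4 L3 over wild-type mixed reference) of 4 functional gene sets (filled symbols) and 3 sets of tissue markers (open symbols) on the array of each prep. The 10 ER folding genes lie between 0.98 and 1.41, and the cytosolic and mitochondrial chaperones lie at -0.35 with prep 1 and at 0.43 and 0.42 with preps 3 and 4.

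The 3 named genes with the profile most like the median of the 10 over the 3 arrays were F58A6.1, cdd-1 and immt-1, at Euclidean distances of 0.033, 0.071 and 0.075 on the log2 scale. Over 3 arrays this measure reflects little more than a similar mean.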

How the data were processed

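The authors deposited a table of 21632 probes and 3 arrays, whose values are log2 ratios: every value under 0 is the log2 of a ratio with 3 decimals (tolerance 0.01 thousandths). The arrays had deposited log2 medians of -0.0072, -0.0247 and -0.0262 for preps 1, 3 and 4. How the ratios were scanned, background-corrected and normalized is not given in the sources used here. Intensities were not used, which leaves probes near background unmarked. The number of arrays limits the precision. No label states which channel is the numerator.

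A platform annotation gave 1 gene for 16450 probes, several for 247, and 4935 had none. Of the first, 16360 matched RefSeq (WBcel235) by gene number and 8 by accession, and 82 kept the annotation's name. Some list genes have no single-gene probe and were not analysed here. No build is named for the probes and no sequence table was used, so no coordinates or sequences are given.

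Arrays were centred on their median and probes of a gene averaged. The mean of preps 1, 3 and 4, the only group, was tested against 0 with limma 3.58.1 in R 4.3.3. The steps were lmFit, eBayes and Benjamini-Hochberg over all features, at a threshold of 0.05. The same fit was run on simulated arrays that were independent and equal in spread. The real arrays were not equal in spread, so nothing is read from that run. The spread of the reference, 1 RNA, does not enter the test. Lists are described by counts and medians. Alternatives were other centring and scaling, a filter of at least 2 arrays, single probes, a robust prior, array weights and each prep left out. The members and lists were chosen with earlier results of these data known. Named genes were all 10 members, per list at most 4 passing genes in the commoner direction and at most 2 in the rarer, and the 3 most similar profiles. Other genes were named after their values were seen: stt-3, uggt-2, Y49E10.4, T24H7.2, cdc-48.1, ire-1, pek-1, atf-6, rtcb-1, phy-2, the Hsp70 relatives and those under other observations.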

Additional observations from a re-analysis of the deposited data

How the results depend on the processing

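All 10 ER folding genes kept a positive mean under each of the 10 alternatives run, and the median over them ranged from 1.18 to 1.38. Their mean in place of their median was 1.24. The count of these genes called higher ranged from 1 to 9 with 1 prep left out. It was 10 with array weights, where 3938 features were higher. With arrays scaled to the same spread it was 7, where 1553 features were higher. None of these genes was lower under any alternative. hsp-3 passed under all 10, with adjusted p up to 0.0492, and cnx-1 passed under array weights alone, where its mean was 0.52. Array weights also gave 3938 higher and 4161 lower features, 12 higher genes of ER entry, 3 higher and 1 lower of ER-associated degradation, 7 higher and 2 lower cytosolic and mitochondrial chaperones, and 3 higher collagen-modifying genes. Scaling to equal spread gave 2 higher ER-associated degradation genes, 0 higher collagen-modifying genes and hsp-4 minus hsp-3 of -0.70, and quantile normalization gave 2 higher ER-associated degradation genes. For these alternatives the cause was not tested.

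With 1 prep left out (2 arrays remain), higher features ranged from 174 to 3211 and lower ones from 212 to 3464. Higher counts ranged from 0 to 1 for UPR sensors, 1 to 9 for other ER folding factors, 0 to 7 for ER entry, 0 to 2 for ER-associated degradation, 0 to 8 for cytosolic and mitochondrial chaperones and 0 to 2 for collagen-modifying genes. Lower counts ranged from 0 to 1 for the cytosolic and mitochondrial list. A random block by the letter code and date of the array titles, which set prep 1 apart, was tried. Limma returned no value for its correlation, so no fit with this block was made. With prep 1 left out, the remaining preps share both. No paired analysis was possible because there is a single group.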

Other observations

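Genes next to the 10 ER folding genes on the chromosomes were looked up. Of 20 adjacent protein-coding genes in the RefSeq annotation, 16 were measured, of which 1 was higher and 3 were lower (limma, adjusted p under 0.05), with a median log2 ratio of -0.16. These are 6.25% higher and 18.8% lower, against 8.26% and 8.37% of all features, and with so few genes nothing is read from the counts. The pair around pdi-1 stood apart from it. The cyclophilin gene cyn-9, which is known to be transcribed together with pdi-1 from an operon, was at -1.0 ± 0.56 (limma adjusted p = 0.0535), and C14B1.2 on the other side was at -2.81 ± 0.25 (limma adjusted p = 0.00294), against 0.64 ± 0.23 for pdi-1 itself.

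Both ER cyclophilin genes on the list of other folding factors were higher, cyn-6 at 1.35 ± 0.30 (limma adjusted p = 0.0112) and cyn-5 at 0.95 ± 0.15 (limma adjusted p = 0.02). Of the FKBP-type isomerase genes on the same list, fkb-3 was higher (1.87, 1.99 and 1.35 with preps 1, 3 and 4). The log2 ratios of fkb-5 were 1.38, 0.94 and 0.06, and those of fkb-4 were 0.01, 0.63 and -0.99, and neither passed.

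Single probes with prep 4 stood far from the other arrays. The ER J-domain gene dnj-27, which has 1 probe, had log2 ratios of 0.34, 0.34 and 3.55 with preps 1, 3 and 4. One probe of sel-1, a gene of ER-associated degradation, was at 0.48, 0.76 and 4.06, and its other probe at 0.49, 1.06 and 0.62. Of the 2 sel-1 probes, 1 thus shows the high value with prep 4, and dnj-27 has no second probe to set beside it. The myosin chaperone gene unc-45 was at -0.04 with prep 1, against 2.41 with prep 3 and 2.30 with prep 4.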
